A study of Homo sapiens with 6 samples.

Results

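Described here are 10 genes of cell-cell adhesion: the classical cadherins CDH1, CDH2, CDH3, CDH4, CDH6 and CDH11, the catenins CTNNA1, CTNND1 and CTNND2, and the adhesion protein gene EPCAM. They were taken by symbol from the count tables, and all 10 were found among 56638 gene rows. Total RNA was sequenced from cells that carry the label SW480, an established line from a human colorectal adenocarcinoma, at passages 16 to 19. The TGFB1 group of 3 libraries came from cells given TGF-β1 at 10 ng/ml more than 4 times, and the control group of 3 libraries from cells without TGF-β1. Both groups were grown in the same serum-containing medium. The libraries held 13012898 to 16005222 counts in genes. The labels do not say whether they are separate cultures, and p-values here cover only the spread among libraries, which may be technical.

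Cadherins are calcium-dependent receptors that bind like cadherins on the neighbouring cell. Their cytoplasmic tails hold p120 (CTNND1), which keeps the complex at the surface, and β-catenin or plakoglobin, which in turn hold α-catenin (CTNNA1), the link to actin. In the epithelial-mesenchymal transition, a programme that TGF-β can start, E-cadherin (CDH1) typically gives way to N-cadherin (CDH2). EPCAM is not a cadherin but a separate epithelial adhesion protein.

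The label was set against marker genes. Of 10 colorectal epithelial markers, KRT8 (1711 ± 1.33 CPM in control libraries, SD, n = 3), KRT18 (183 ± 7.36 CPM) and EPCAM (6.94 ± 0.543 CPM) had enough counts to be tested. CPM is the number of counts per 1000000 of a TMM-scaled library total. The other 7, among them the intestinal genes CDX2, VIL1, KRT20 and CDH17, were at or near 0 in both groups, with at most 12 counts in the 3 libraries of a group. Of the simple-epithelial keratins KRT8 and KRT18 were therefore present and KRT19, with 1 count in control and 6 in TGFB1 libraries, was not, and neither were those intestinal markers. The cells are called by their label below.

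With TGF-β1, CDH2 RNA was 7.07-fold higher, and CDH1 and EPCAM RNA were 3.95-fold and 1.73-fold lower. CTNNA1 and CTNND1 did not pass the test, and their 95% intervals lay between 0.881-fold and 1.11-fold. Of the 10 members, 7 had enough counts to be tested, and CDH6, CDH11 and CTNND2 had 0 counts in all 6 libraries. With edgeR's quasi-likelihood test and Benjamini-Hochberg adjustment over 14897 genes, 1 member rose (CDH2), 3 fell (CDH1, CDH4 and EPCAM) and 3 did not pass (CDH3, CTNNA1 and CTNND1). Across all tested genes 47.3% passed, 23.4% higher and 23.9% lower, so 4 of 7 is near the background share. In 5 of the 7 tested members the TGFB1 and control libraries did not overlap, against 54.2% of all tested genes. By size, 1.36% of tested genes had an absolute log2 fold change as large as that of CDH2. For CDH1, which was tested only through its control libraries, the share was 2.93%, and nothing is read from it. EPCAM and CDH4 were at 13.5% and 26.6%, and CTNNA1, CTNND1 and CDH3 at 84.3%, 78.8% and 76.9%.

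**Figure D1:**
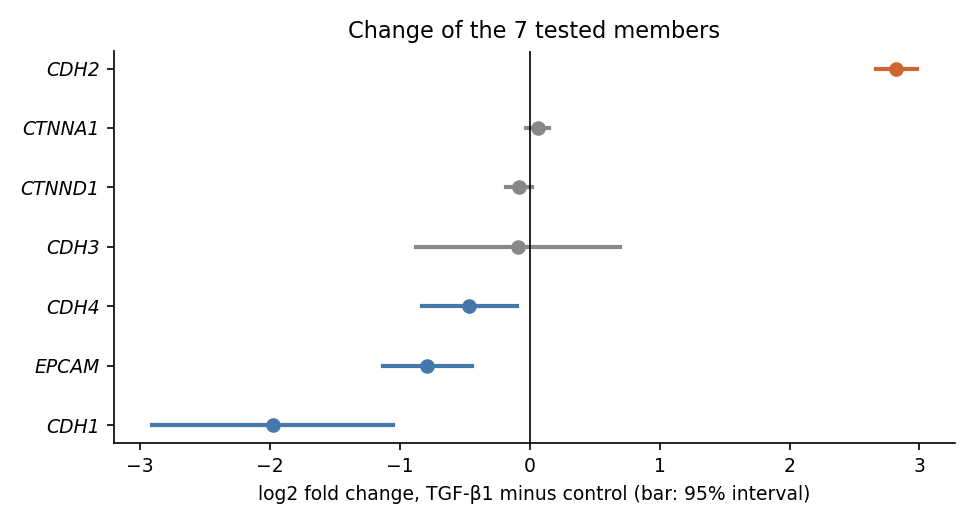
Log2 fold change (TGF-β1 minus control) of the 7 tested members with its 95% interval, in orange where higher, blue where lower and grey where the test was not passed. CDH2 stands alone on the right at 2.82, CDH1 lies farthest left at −1.98, and the intervals of CTNNA1 and CTNND1 are narrow and cross 0.

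CDH2 encodes N-cadherin, the cadherin of neural and mesenchymal cells. Control libraries 1, 2 and 3 held 143, 146 and 166 counts, or 10.5, 10.1 and 11.1 CPM. TGFB1 libraries 1, 2 and 3 held 1114, 1181 and 1018 counts, or 75.7, 72.2 and 76.8 CPM. The groups are far apart, and libraries of a group varied little (coefficient of variation 4.55% and 3.24%). CDH2 was 7.07-fold higher with TGF-β1 (log2 fold change 2.82 ± 0.08, SE, 95% interval 6.35-fold to 7.88-fold, edgeR adjusted p = 3.34e-22). By log2 fold change it ranked at place 122 of 14897 tested genes.

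The sequences around the CDH2 start sites are shown because CDH2 was the member that rose. CDH4, its closest relative in this set, is shown beside it and was lower. That CDH4 call is weak, as described below: its groups overlap and several alternative fits lost it. The set of RefSeq (GRCh38.p14) windows used here held 2 starts for CDH2 and 2 for CDH4, each as 250 bases before and 50 bases after the start. This set has no window for 6 members and may lack other starts of CDH2 and CDH4. First and second give the order in the set, not the main start of the gene. The counts are summed per gene and do not tell the starts apart. Capitals mark CACCTG or its reverse complement CAGGTG, the E-box bound by SNAI and ZEB repressors, and CAGACA or TGTCTG, the CAGA box bound by SMADs. Both strands were searched, and the motifs do not overlap.
CDH2 first start, chr18:28177081-28177380, minus strand: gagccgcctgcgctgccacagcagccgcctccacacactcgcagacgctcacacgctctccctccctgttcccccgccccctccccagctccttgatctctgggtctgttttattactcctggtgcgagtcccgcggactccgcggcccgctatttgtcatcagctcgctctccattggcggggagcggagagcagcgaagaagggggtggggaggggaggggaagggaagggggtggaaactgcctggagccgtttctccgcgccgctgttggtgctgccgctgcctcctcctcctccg
CDH2 second start, chr18:28036592-28036891, minus strand: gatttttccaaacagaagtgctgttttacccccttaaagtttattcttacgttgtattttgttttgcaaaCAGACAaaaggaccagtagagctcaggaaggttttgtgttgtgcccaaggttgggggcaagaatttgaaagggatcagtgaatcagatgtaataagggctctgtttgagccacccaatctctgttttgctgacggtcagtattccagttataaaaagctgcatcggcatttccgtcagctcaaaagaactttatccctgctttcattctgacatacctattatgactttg
CDH4 first start, chr20:61499171-61499470, plus strand: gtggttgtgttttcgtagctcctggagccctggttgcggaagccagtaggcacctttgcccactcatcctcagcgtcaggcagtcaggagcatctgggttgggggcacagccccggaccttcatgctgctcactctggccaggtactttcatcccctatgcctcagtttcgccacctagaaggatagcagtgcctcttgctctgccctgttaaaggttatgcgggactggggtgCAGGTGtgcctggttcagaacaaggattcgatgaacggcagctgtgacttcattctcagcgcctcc

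The first CDH2 window held neither motif, and 23 CG dinucleotides at 67% GC, against a median of 14 and 58.7% over all 35116 windows. The second held 1 CAGA box, 180 bases before the start, and 4 CG dinucleotides. The first CDH4 window held 1 E-box, 16 bases before the start, and the second CDH4 window, not shown, held neither motif. An E-box was found in 20.6% of all windows and a CAGA box in 16.9%, so single matches are common. These matches are letters in a window and carry no statement about binding. Windows of CTNNA1 (4) and CTNND2 (2) held neither motif. CDH1, CDH3, CDH6, CDH11, CTNND1 and EPCAM had no entry in the table.

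CDH1, the E-cadherin gene that defines epithelial junctions, was scarce before any treatment. Control libraries 1, 2 and 3 held 16, 15 and 16 counts (1.17, 1.04 and 1.07 CPM), and TGFB1 libraries held 1, 6 and 5 counts (0.0679, 0.367 and 0.377 CPM). All TGFB1 libraries lay below all controls, with TGFB1 1 the lowest. CDH1 fell 3.95-fold (log2 fold change −1.98 ± 0.45, edgeR adjusted p = 0.000610), and the 95% interval of the ratio from counting alone, 0.120 to 0.474, is wide. It passed the count filter through the control libraries only, which fixes its direction among tested genes. With no filter on low counts it was also lower (edgeR adjusted p = 0.000321). Neither this fall nor any other here can tell fewer cells with the RNA from less RNA per cell, since the libraries are bulk.

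CDH3, which encodes P-cadherin of basal epithelia, was scarce too. Its counts were 11, 11 and 10 in control and 8, 15 and 8 in TGFB1 libraries, and the groups overlap. At 0.746 ± 0.0715 against 0.688 ± 0.200 CPM the difference did not pass (log2 fold change −0.09 ± 0.38, edgeR adjusted p = 0.867). The 95% interval of 0.545-fold to 1.61-fold leaves room for a moderate change in either direction, so a change of that size is not excluded.

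CDH4, the R-cadherin gene first known from retina, is the classical cadherin most like CDH2 in sequence. Control libraries held 94, 62 and 82 counts (6.90, 4.30 and 5.48 CPM), and TGFB1 libraries 65, 65 and 48 (4.42, 3.97 and 3.62 CPM). The groups overlap, because control 2 lies below TGFB1 1, and the control libraries varied by 23.4% (coefficient of variation). CDH4 was 1.38-fold lower (log2 fold change −0.47 ± 0.18, edgeR adjusted p = 0.0318). This call is weak: it ended without control 1 (log2 fold change −0.29, edgeR adjusted p = 0.229), without control 3 (0.0679), TGFB1 2 (0.0648) or TGFB1 3 (0.0931), in DESeq2 (DESeq2 adjusted p = 0.0869), in limma-voom (adjusted p = 0.0538) and when libraries were scaled by their size alone (edgeR adjusted p = 0.0619). The direction was lower in every one of these fits.

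**Figure D2:**
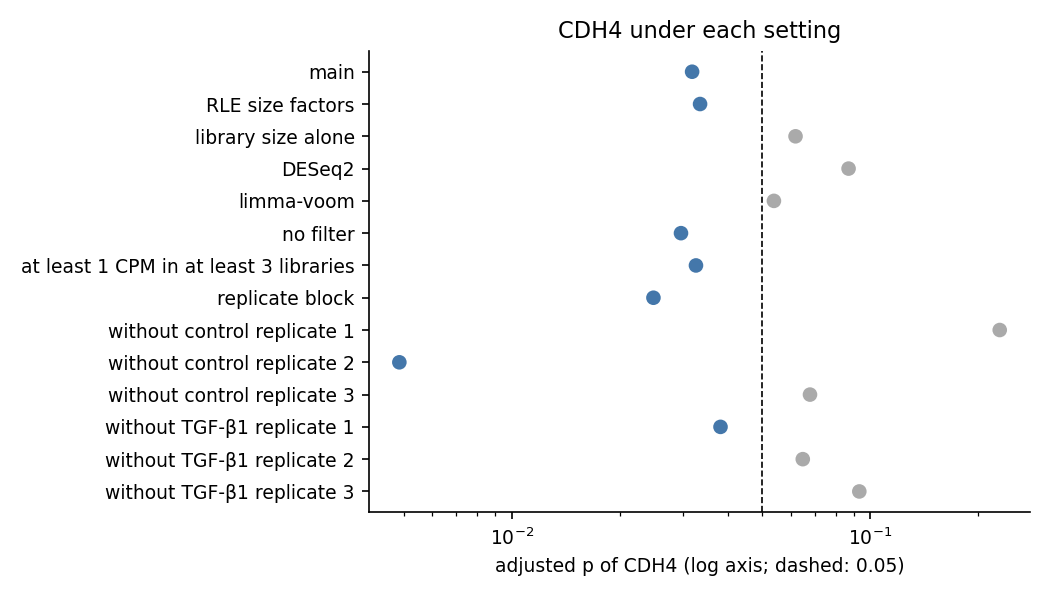
Adjusted p of CDH4 (log axis) in the reported test (first line) and under 13 alternatives, with 0.05 dashed, blue below it and grey above. Of the alternatives, 7 lie above the line, the highest being the fit without control 1 at 0.229, and the lowest value, 0.00486, comes from leaving out control 2.

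CDH6 (K-cadherin) and CDH11 (OB-cadherin, found in mesenchymal cells) had 0 counts throughout. This allows up to 0.0698 CPM over the control and 0.0677 CPM over the TGFB1 libraries, for counting error only. The rise among these cadherins was thus seen for CDH2 and not for CDH11.

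**Figure D3:**
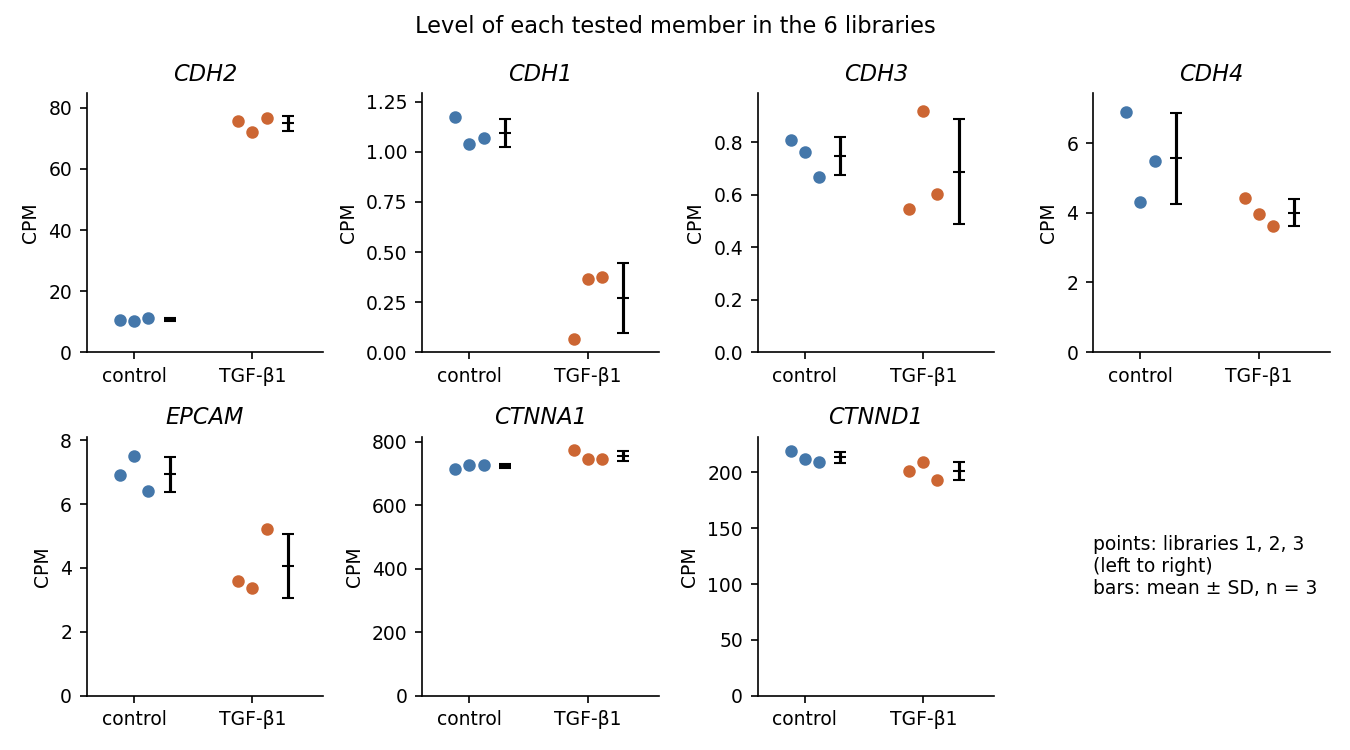
CPM of the 7 tested members in each library, each panel on its own axis from 0, with libraries 1 to 3 from left to right and mean ± SD (n = 3) beside them. The groups are separate for CDH2, CDH1 and EPCAM, overlap for CDH4 and CDH3, and differ little, though without overlap, for CTNNA1 and CTNND1.

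Levels of different genes were compared per kilobase of the longest GENCODE 29 transcript. The 6 cadherins together gave 3.67 ± 0.270 CPM per kb in control and 18.1 ± 0.503 in TGFB1 libraries, a ratio of 4.93. Among these 6, CDH2 held the largest share already in control cells, at 62.3%, 69.5% and 68.2% of the sum in libraries 1, 2 and 3. With TGF-β1 it made up 95.6%, 95.0% and 95.9%. The share of CDH4 was 23.1% ± 3.87 in control and 3.40% ± 0.358 in TGFB1 libraries, and that of CDH1 6.11% ± 0.258 and 0.307% ± 0.200. CDH3, whose level did not pass the test, went from 4.14% ± 0.499 to 0.776% ± 0.249, since shares of one sum move against each other. These shares hold for the 6 members only. Over 23 cadherins, the 6 and 17 others described below, a sum added after the data were seen, CDH2 made up 16.8% ± 0.270 in control and 52.8% ± 2.54 in TGFB1 libraries. The largest part in control libraries was then CDH24, a type II cadherin, with 64.8% ± 2.27, against 31.0% ± 1.94 with TGF-β1, while its own level did not pass the test. The sum of all 23 was 14.6 ± 0.529 and 32.7 ± 0.902 CPM per kb, a ratio of 2.25.

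**Figure D4:**
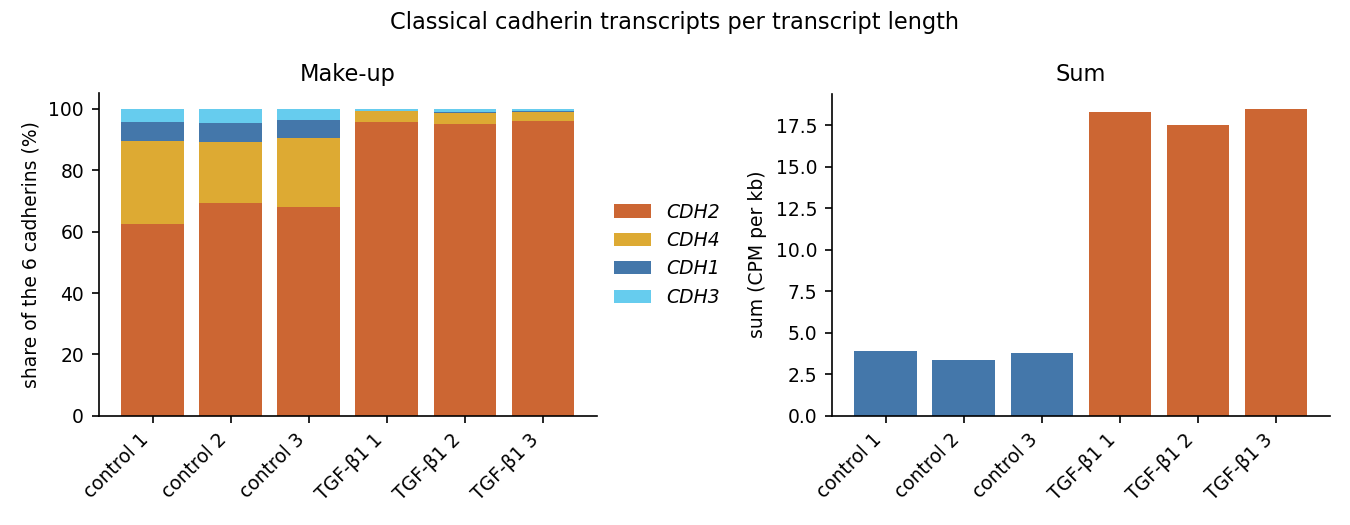
Left, share of the length-scaled sum of 6 cadherins held by CDH2, CDH4, CDH1 and CDH3 in each library (CDH6 and CDH11 are 0). Right, the sum in CPM per kb. CDH2 holds 62.3% to 69.5% without and 95.0% to 95.9% with TGF-β1, while the sum is 3.37 to 3.89 without and 17.5 to 18.5 with it.

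Neither tested catenin among the members passed the test. CTNNA1, α-catenin, stood at 715, 727 and 726 CPM in control libraries 1, 2 and 3 and at 773, 744 and 745 CPM in TGFB1 libraries 1, 2 and 3. The TGFB1 values all lie above the controls, but the difference of 1.04-fold did not pass (log2 fold change 0.06 ± 0.04, edgeR adjusted p = 0.271), with a 95% interval of 0.980-fold to 1.11-fold. Scaled by library size only, it passed as higher (log2 fold change 0.12, edgeR adjusted p = 0.0228). CTNND1, p120-catenin, stood at 219, 212 and 209.7 CPM in control and 201, 209.4 and 194 CPM in TGFB1 libraries. The groups just separate, and CTNND1 did not pass either (log2 fold change −0.08 ± 0.05, edgeR adjusted p = 0.156, 95% interval 0.881-fold to 1.01-fold). Some exon bases lie in other genes too, where reads can go uncounted as ambiguous: in GENCODE 29, 5.89% for CTNNA1 and 3.65% for CTNND1, the latter shared with the read-through gene TMX2-CTNND1. CTNND2, a p120 relative of neurons, had 0 counts. Per kilobase, CTNNA1 exceeded the sum of the 6 cadherins by 51.6 ± 4.30 times in control and 10.9 ± 0.315 times in TGFB1 libraries. With the merged length of all exons these ratios were 25.8 ± 2.17 and 5.40 ± 0.156, and against the sum of all 23 cadherins they were 12.97 ± 0.440 and 6.01 ± 0.0886.

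Among 8 other catenin genes 6 were tested, of which 1 rose, 2 fell and 3 did not pass, with a median log2 fold change of −0.08 against 0.00033 over all tested genes. Of all tested genes 23.4% rose and 23.9% fell. JUP, plakoglobin, which takes the place of β-catenin on the cadherin tail, fell 2.12-fold (edgeR adjusted p = 1.31e-16). CTNNB1, β-catenin itself, named here after its values were seen, did not pass, with 336 ± 7.38 CPM in control and 339 ± 1.92 CPM in TGFB1 libraries (edgeR adjusted p = 0.805, 95% interval 0.948-fold to 1.08-fold). Of the length-scaled sum of the pair, a measure also chosen after the values were seen, JUP made up 71.8% ± 1.06 in control and 54.3% ± 1.75 in TGFB1 libraries, or 81.5% ± 0.794 and 67.2% ± 1.56 with merged exon lengths. PKP4, a p120 relative, fell to 69.7 ± 2.62 CPM, against 90.1 ± 3.94 CPM in control (edgeR adjusted p = 4.17e-06). CTNNBIP1, a small inhibitor of β-catenin, rose from 4.03 ± 0.639 to 8.61 ± 0.187 CPM (edgeR adjusted p = 5.13e-07). The α-catenin-like CTNNAL1, at 121 ± 1.69 and 126 ± 3.64 CPM, did not pass (edgeR adjusted p = 0.296).

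EPCAM stood at 6.90, 7.49 and 6.41 CPM in control libraries 1, 2 and 3 (94, 108 and 96 counts) and at 3.60, 3.36 and 5.21 CPM in TGFB1 libraries (53, 55 and 69 counts). All TGFB1 libraries lay below all controls, with TGFB1 3 nearest to them. EPCAM fell 1.73-fold (log2 fold change −0.79 ± 0.17, 95% interval 0.457-fold to 0.733-fold, edgeR adjusted p = 0.000246). Of 9 tested partners and processing enzymes of EPCAM, 2 rose, 3 fell and 4 did not pass (median 0.07), near the 47.3% of all tested genes that passed. Of the 2 that rose, SPINT2 passed the count filter through the TGFB1 libraries, which fixes its direction. CLDN7, a claudin that binds EPCAM, stood at 11.8 ± 0.816 CPM in control and fell to 7.15 ± 1.33 CPM (edgeR adjusted p = 4.66e-05). For the tetraspanin CD9 the fall was from 124 ± 3.20 CPM to 84.7 ± 2.62 CPM (edgeR adjusted p = 1.03e-09). ST14, the matriptase that cleaves EPCAM, fell 2.77-fold, and FHL2, a partner of its intracellular part, rose 1.62-fold (edgeR adjusted p = 1.52e-09 and 1.71e-12).

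Of 17 other cadherin genes only CDH13 and CDH24 had enough counts to be tested, and CDH7, CDH9 and CDH22 had 0 counts throughout. CDH13, T-cadherin, is held in the membrane by a lipid anchor and has no catenin-binding tail. It rose alongside CDH2, with 5.80, 5.14 and 4.67 CPM in control libraries and 30.7, 35.7 and 30.3 CPM in TGFB1 libraries. The groups are far apart, and the rise was 6.22-fold (log2 fold change 2.64 ± 0.11, edgeR adjusted p = 7.10e-18). Per kilobase CDH13 stood at 0.647 ± 0.0704 in control and 4.01 ± 0.375 in TGFB1 libraries, below CDH2 in both. CDH24, a type II cadherin, did not pass, at 33.5 ± 2.13 CPM without and 36.1 ± 3.24 CPM with TGF-β1 (edgeR adjusted p = 0.263). Per kilobase it stood at 9.43 ± 0.600 in control, above CDH2, and at 10.2 ± 0.912 in TGFB1 libraries, below CDH2.

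Nectins are immunoglobulin-like adhesion proteins that join cadherins at the junction through afadin. All 6 listed genes were tested, 4 rose, 1 fell and 1 did not pass (median 0.43), where 23.4% of all tested genes rose and 23.9% fell. PVRL4 (nectin-4) had 0.676 ± 0.0683 CPM in control and 5.16 ± 0.776 in TGFB1 libraries (edgeR adjusted p = 7.00e-11). It passed the count filter through the TGFB1 libraries, which fixes its direction. PVRL1 (nectin-1) rose 1.63-fold and PVR (nectin-like 5) 1.39-fold, whereas PVRL2 (nectin-2) fell to 37.8 ± 2.37 CPM, against 70.5 ± 5.16 CPM in control (edgeR adjusted p = 9.90e-08, 7.13e-09 and 6.27e-12).

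Genes of the rest of the junction changed in both directions, as did tested genes at large (23.4% higher and 23.9% lower). Of 12 actin linkers and scaffolds 3 rose, 4 fell and 5 did not pass (median −0.11), and 5 rose without TGFB1 3 or when scaled by library size only. EPB41L5, a FERM-domain protein that aids cadherin uptake, fell 3.05-fold to 10.5 ± 1.13 CPM, against 31.8 ± 0.884 CPM in control libraries (edgeR adjusted p = 8.29e-15). The LIM proteins split, with ZYX (zyxin) 1.39-fold higher and LIMD1 and AJUBA 1.91-fold and 1.32-fold lower (edgeR adjusted p = 5.73e-09, 3.43e-10 and 1.74e-06). Of 12 genes of cadherin shedding and turnover 3 rose, 5 fell and 4 did not pass (median −0.06). ADAM10, the protease that sheds E- and N-cadherin, rose 1.20-fold, while ADAM15 fell 1.31-fold (edgeR adjusted p = 0.000418 and 5.25e-08). MDM2, a ubiquitin ligase, fell 1.64-fold and PIP5K1C, a lipid kinase of cadherin traffic, 1.20-fold (edgeR adjusted p = 2.69e-10 and 0.000471).

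**Figure D5:**
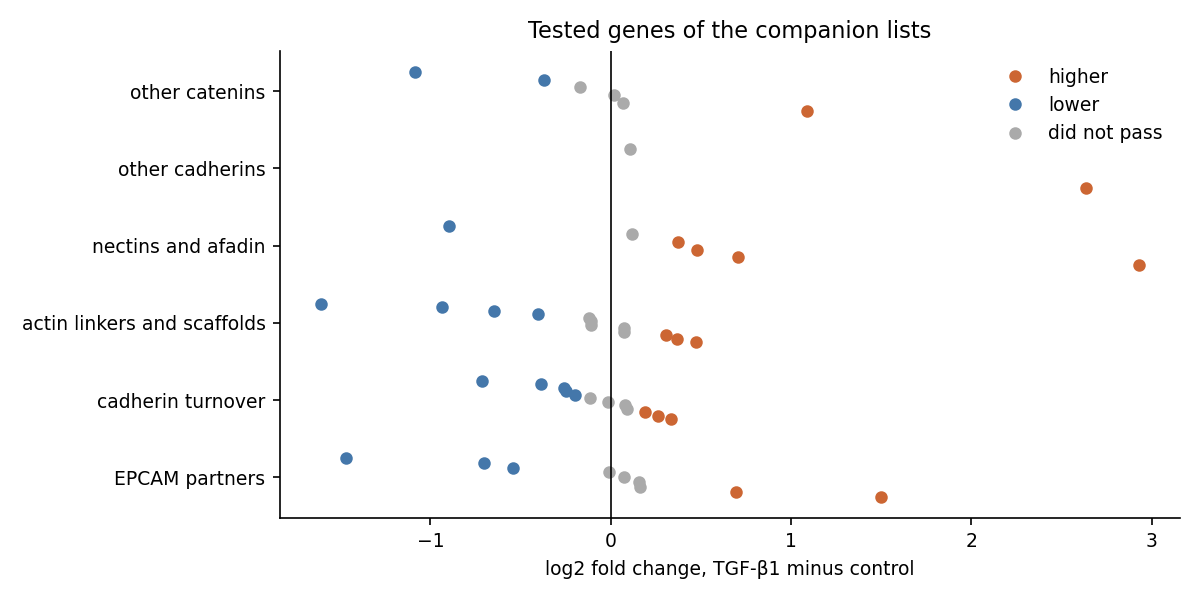
Log2 fold change (TGF-β1 minus control) of every tested gene in 6 companion lists, 1 point per gene, orange where higher, blue where lower and grey where the test was not passed. Each list other than the 2 tested other cadherins has genes on both sides of 0, and the farthest points are CDH13 and PVRL4 on the right and EPB41L5 on the left.

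Per kilobase, the order of the tested members in control cells was CTNNA1 (189 ± 1.74 CPM per kb), CTNND1 (32.6 ± 0.790), EPCAM (4.02 ± 0.315), CDH2 (2.44 ± 0.111), CDH4 (0.854 ± 0.200), CDH1 (0.224 ± 0.0145) and CDH3 (0.151 ± 0.0145). Ranges over libraries of neighbours in this order did not overlap. In TGFB1 libraries CDH2 (17.3 ± 0.560 CPM per kb) stood above EPCAM (2.35 ± 0.582), and CDH3 (0.140 ± 0.0406) above CDH1 (0.0554 ± 0.0359), again without overlap between neighbours. The places of CDH1 and CDH3 rest on 47 and 32 counts over the control libraries and 12 and 31 over the TGFB1 libraries.

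The genes whose profile over the 6 libraries was nearest to that of CDH2, by the root mean square distance of centred log2 CPM among 10857 genes, were EPHB2 (0.0736), an ephrin receptor, LOX (0.132), the collagen crosslinking enzyme, and LTBP2 (0.138), a microfibril protein. EPHB2 stood at 30.7 ± 1.59 and 215 ± 7.09 CPM. The likeness mostly restates that these genes rose by about the same factor. No such search was made for CDH1, whose mean log2 CPM of −0.56 was too low.

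Markers of the label and of other cell types were read beside the cadherins. Among the colorectal epithelial markers, KRT18 was 1.47-fold lower with TGF-β1 (edgeR adjusted p = 1.73e-10) and KRT8 did not pass (edgeR adjusted p = 0.628). EPCAM fell, as given above. Of 10 fibroblast markers 5 were tested, all of which were higher with TGF-β1, where 23.4% of all tested genes rose. For FAP and THY1 among them the filter left no other direction, as given below. The 10 together summed to 91.0 to 95.0 CPM without and 120 to 136 CPM with TGF-β1. COL1A1, a collagen chain, went from 81.3 ± 2.64 to 105 ± 5.40 CPM, DCN (decorin) was 2.24-fold and PDGFRB, a growth factor receptor, 1.85-fold higher (edgeR adjusted p = 2.60e-06, 4.57e-07 and 3.29e-07). FAP and THY1 passed the count filter through the TGFB1 libraries, which fixes their direction. COL1A2, COL3A1, PDGFRA and CDH11 had at most 3 counts per group. LUM, also not tested, went the other way, with 9 counts in control and 3 in TGFB1 libraries, and its groups overlap. Among 6 endothelial markers only VWF was tested and was lower, a direction fixed by its passing the filter through the control libraries, with a summed level of 2.72 to 3.47 and 0.856 to 1.22 CPM, and PECAM1 and KDR had 0 counts. None of 6 immune markers had enough counts to be tested, with sums of 0.347 to 1.07 and 0.136 to 0.733 CPM and PTPRC at 0. Of 5 neural markers only TUBB3, which is also found outside neurons, was tested and was higher, with sums of 127 to 138 and 187 to 203 CPM, and SOX10 and S100B had at most 1 count per group. Whether any of these markers bears on the cadherin values was not tested.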

How the data were processed

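The authors deposited 1 table of raw read counts by gene symbol for each of the 6 libraries, not normalized. Per the submitters' processing notes, the tools were TopHat2 2.0.11, TopHat and HTSeq, with no role or order, and hg19 and GRCh37 were the builds. Annotation, strand setting and read filters: not given in the sources used here. Closing lines of each table stayed out of totals (no feature 5.44% to 5.98%, ambiguous 9.01% to 9.43%, aligned to several places 12.0% to 12.5% of each table's sum), which lowers genes that overlap others or have close copies.

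Genes were kept with filterByExpr (minimum count 10, minimum total 15), scaled by TMM and tested with edgeR 4.0.16 (robust glmQLFit and glmQLFTest, R 4.3.3), with Benjamini-Hochberg adjustment over 14897 genes and a threshold of 0.05. CPM use the TMM-scaled total of tested genes. The code was tested on simulated data. Alternatives were DESeq2 1.42.0, limma-voom (limma 3.58.1), 2 other scalings, 2 other filters, each library left out in turn, and a block for the replicate number. Same-numbered libraries correlated at −0.25 to 0.03 after centring by group, and different-numbered ones at −0.22 to 0.27. Libraries of the same number were thus no more alike than others. With 3 libraries per group this cannot show whether they shared a culture or day. No pair within a group agreed to sampling noise (chi-square 1.82 to 4.67 per degree of freedom).

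Standard errors are the log2 fold change over the root of F, and fold intervals use 95% t quantiles. Intervals of count ratios are exact and, like floors of 3 counts, cover counting error only. Lengths are from GENCODE 29 and promoter windows from RefSeq, both GRCh38 and so of another build than the counts. Members, companion lists, named genes (all members, and up to 4 tested genes with the lowest p per list) and tests were chosen with earlier results of these data known. No test was made over the members as a list. Some genes and 1 list under that rule are not reported here.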

Additional observations from a re-analysis of the deposited data

How the results depend on the processing

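Over 13 alternatives, CDH1, CDH2 and EPCAM kept their direction and stayed past the threshold in all, with log2 fold changes of −2.30 to −1.54, 2.79 to 2.88 and −0.99 to −0.66. For CDH1 all but the fit with no filter kept the gene through its control libraries only, which fixes its direction in them. CDH3 and CTNND1 stayed short of it in all that could test them (−0.37 to 0.06 and −0.11 to −0.03), and CDH3 was not tested with at least 1 CPM in at least 3 libraries. CDH4 lost its call with scaling by library size alone (−0.41), in DESeq2 (−0.47) and in limma-voom (−0.44), and its leave-one-out values ran from −0.62 to −0.29. Its control libraries spread most, and the cause of that spread was not tested. With library size alone CTNNA1 passed (0.12), members higher became 2, other catenins higher 2 and actin linkers higher 5, and over all genes 4216 were higher and 2879 lower, against 3483 and 3561. That scaling moved the median log2 fold change by 0.06. Without a filter 2 other cadherins were lower in edgeR, namely CDH16 and CDH18. With the filter neither was tested. The 0 lower there, in edgeR, DESeq2 and limma-voom and at an unadjusted p under 0.05, covers only CDH13 and CDH24. Leaving out 1 library gave 3 to 5 actin linkers higher. With merged exon lengths the CDH1 share in control was 5.56% and the cadherin sums 3.19 and 15.8 CPM per kb. With 17 other cadherins in the sum, chosen after seeing the data, the sums were 14.6 and 32.7 CPM per kb, the CDH2 shares 16.8% and 52.8%, and the CDH1 share in control 1.54%. With the replicate number as a block, which the labels do not tie to a shared culture or day, 3355 genes were higher and 3420 lower and no member changed its call (CDH2 2.82, CDH1 −1.98, CDH4 −0.46, EPCAM −0.79). Depth limits CDH1 and CDH3 most, with at most 16 counts per library.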
